A study of Mus musculus with 18 samples.

Results

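The effect of an ataxin-1 transgene on the cerebellum of young mice was read from 6 of the 18 RNA-seq libraries of the series. Of these, 3 came from ATXN1[30Q]D776/Cck-/- mice at postnatal week 5, called transgenic below, and 3 came from Cck-/- mice of the same age. All were FVB mice, and both groups carry the label Cck-/-, so no library labelled as having intact Cck enters the comparison. The other 12 libraries, 3 of each genotype at weeks 12 and 28, served to estimate the spread of each gene and to set the effect at week 5 beside the later ones. Of the 22783 genes in the deposited table, 13487 reached 1 FPKM (fragments per length of transcript and per mapped total of the library) in at least 3 of the 18 libraries, and these were tested. Whether each library stands for its own animal is not stated in the labels, so p-values measure only the spread between these libraries.

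Ataxin-1 is a nuclear protein that acts with the transcriptional repressor Capicua, and a lengthened glutamine tract in it causes spinocerebellar ataxia type 1, in which Purkinje cells, whose axons carry the output of the cerebellar cortex, fail and die. The transgene label stands for a tract of 30 glutamines joined with an aspartate in place of a serine that is normally phosphorylated. Mice of this design carry the human coding sequence behind the Pcp2 promoter, which is active in Purkinje cells, although the labels do not name the promoter. Cholecystokinin, the product of Cck, is a secreted neuropeptide that acts on the CCK1 and CCK2 receptors, the products of Cckar and Cckbr. The transgene's own transcript, being human, was not analysed here.

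The tissue labels matched the markers. The Purkinje cell gene Pcp2, the granule neuron gene Gabra6 and the myelin gene Mbp stood at 673, 408 and 2367 FPKM on average in the transgenic libraries, and at 751, 417 and 2979.9 FPKM in the Cck-/- libraries. The forebrain gene Emx1 reached at most 0.118 FPKM in the 6 libraries. The 9 Hox genes of the adjoining brainstem were also near 0, but they summed to 0.102, 0.171 and 0.21 FPKM in the transgenic libraries, against 0.615, 0.715 and 1.08 FPKM in the Cck-/- libraries. In 7 of the 9 the transgenic libraries lay below the Cck-/- ones, a comparison made after the values were seen. The same held for 16% of the tested genes, which do not include these 9. The whole brainstem and cerebellar nuclei list summed to 214 to 268 FPKM in transgenic and 222 to 257 FPKM in Cck-/- libraries, with overlap. Genes of the choroid plexus, the epithelium that makes cerebrospinal fluid, set libraries apart within a group. The 17 genes of that list summed to 135.5, 117 and 3488 FPKM in transgenic replicates 1, 2 and 3, against 2487, 2026 and 2753 FPKM in Cck-/- replicates 1, 2 and 3. Blood genes summed to 717, 761 and 1001 FPKM in the transgenic libraries, against 1767, 1127 and 1631 FPKM in the Cck-/- libraries, with no overlap. Xist, which is made from an inactive X chromosome, stood at 99.6, 0.0806 and 61.2 FPKM in transgenic and 66.3, 0.882 and 0.432 FPKM in Cck-/- libraries. The Y-linked gene Ddx3y stood at 0.643, 23.7 and 0.0134 FPKM in transgenic and 0.00513, 27.1 and 28.6 FPKM in Cck-/- libraries. The markers of sex were thus not balanced between the groups, and transgenic replicate 1 held both. Pairwise correlations of log2 values were 0.991 to 0.993 among transgenic libraries, 0.994 to 0.996 among Cck-/- libraries and 0.986 to 0.990 between the groups. Steps in the lowest values of single-exon genes put 1 FPKM at about 36.0 to 37.3 fragments per kilobase in transgenic libraries and 32.0 to 37.4 in Cck-/- libraries, so a transcript of 1 kilobase at 1 FPKM rests on about that many fragments.

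The transgene went with small changes in many genes. At an adjusted p under 0.05 by limma, 1035 genes (7.67%) were called, 445 higher (3.3%) and 590 lower (4.37%) in the transgenic libraries, and 3010 genes had an unadjusted p under 0.05. The median log2 fold change of all genes was 0.000336. The change was under 0.5 on the log2 scale in 808 of the called genes (78.1%), and reached 1 in 15 higher and 30 lower genes. The 3 transgenic libraries lay wholly to one side of the 3 Cck-/- libraries in 1033 of the 1035 called genes, against 15.1% of all tested genes above and 16% below. The 2 called genes whose groups overlapped were AA465934 and Tmem18, which are named here after their values were seen. Leaving out 1 library moved the count of calls to 458 (without Cck-/- replicate 3), 501 (without transgenic replicate 2), 545 (without Cck-/- replicate 1), 657 (without Cck-/- replicate 2) and 676 (without transgenic replicate 3), and leaving out the 3 libraries holding Xist along with Y-linked genes, transgenic replicate 1 and 2 libraries of later weeks, moved it to 666. Without the 3 libraries low in choroid plexus genes, which include transgenic replicates 1 and 2, the count was 309, with transgenic replicate 3 then the only transgenic library of week 5 and assumed to vary as the other groups do.

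**Figure D1:**
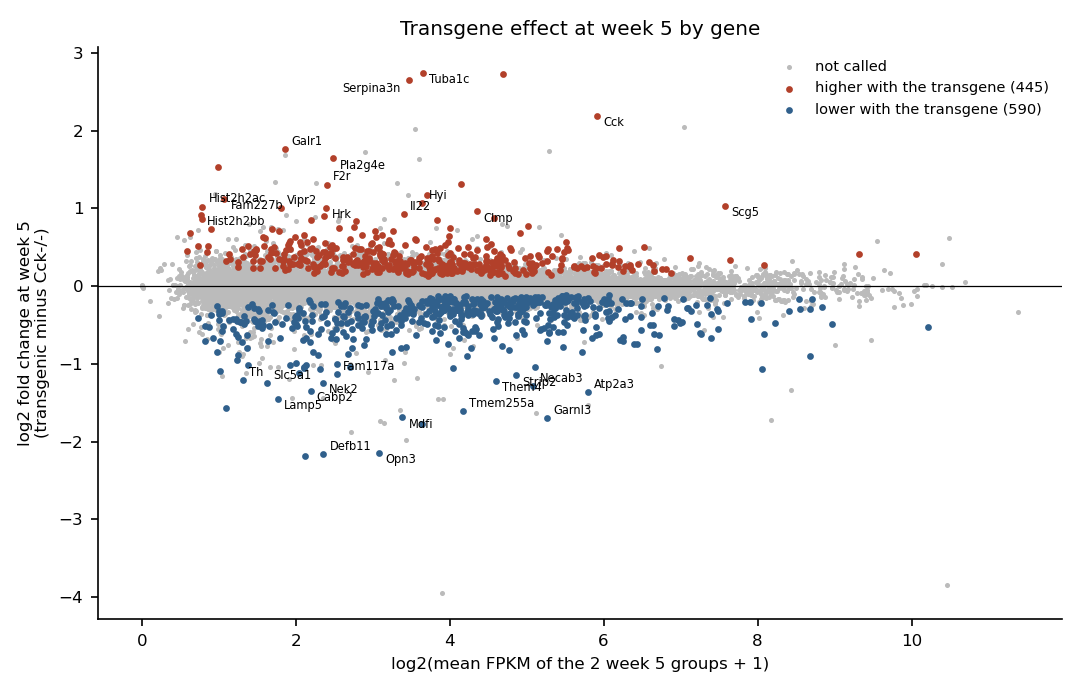
Log2 fold change at week 5 (transgenic minus Cck-/-, vertical axis) against the log2 mean FPKM + 1 of both groups (horizontal axis), 1 point per tested gene. Red and blue points are the 445 genes called higher and the 590 called lower, and names mark the 15 largest rises and 15 largest falls with no overlap between the groups. Most coloured points lie within 0.5 of 0.

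Cck itself was among the genes that rose most, in mice that are all labelled Cck-/-. It stood at 81, 112 and 102 FPKM in the transgenic libraries, against 25.8, 17.1 and 19.5 FPKM in the Cck-/- libraries. Each transgenic library was at least 3 times the highest Cck-/- one, and the log2 fold change was 2.19 (SE 0.23, adjusted p = 5.82e-05; limma). Since the table sums reads over whole genes, it does not tell which part of Cck they come from, and the state of its alleles cannot be read from it. An effect of the transgene cannot be told apart here from whatever goes with that level of Cck. Cck lies on chromosome 9 (121489824 to 121495694, mm10). Within 5 Mb of it, 5 of 63 tested genes were called (7.94%), close to the 7.67% of all genes: Cck, Csrnp1, E530011L22Rik and Pomgnt2 higher and Tmem158 lower. Csrnp1, Pomgnt2 and Tmem158 were each lost without at least 1 library (adjusted p up to 0.167, 0.17 and 0.078; limma). Neither receptor gene of cholecystokinin was called. Cckbr stood at 0.887, 1.55 and 0.959 FPKM in transgenic and 0.935, 0.724 and 1.24 FPKM in Cck-/- libraries (0.11, SE 0.22, adjusted p = 0.825; limma), and Cckar reached at most 0.0649 FPKM in the 6 libraries and was not tested. Mouse Atxn1 stood at 6.32, 6.5 and 5.33 FPKM in transgenic and 4.71, 5.96 and 5.17 FPKM in Cck-/- libraries and was not called (adjusted p = 0.556; limma).

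Of 29 tested genes for neuropeptides, their processing and their receptors, 4 including Cck were higher (13.8%, against 3.3% of all tested genes) and 1 was lower (3.45%, against 4.37%). Scg5, which encodes 7B2, the chaperone of the prohormone convertase PC2, stood at 266, 243 and 257 FPKM in transgenic libraries, against 127, 128 and 118 FPKM in Cck-/- libraries. The groups were far apart, with little spread in either (1.03, SE 0.081, adjusted p = 4.07e-06; limma). Pcsk1, which encodes the convertase PC1/3, went the other way, at 4.63, 2.87 and 3.2 FPKM in transgenic and 7.3, 7.32 and 7.17 FPKM in Cck-/- libraries (-0.87, adjusted p = 0.00229; limma). Pam, the enzyme that amidates peptide ends, rose by 0.30 (adjusted p = 0.0268; limma), a call that was lost without at least 1 library, with the highest adjusted p of 0.126 without transgenic replicate 2. Among receptors, Galr1, for galanin, stood at 2.97, 5.61 and 5.38 FPKM in transgenic and 0.551, 0.786 and 0.537 FPKM in Cck-/- libraries (1.77, SE 0.22, adjusted p = 0.000236; limma). Galanin itself, Gal, stood at 0.425, 0.495 and 0.536 FPKM in transgenic and 2.13, 2.23 and 0.696 FPKM in Cck-/- libraries and was not called (adjusted p = 0.135; limma). Vipr2, a receptor of vasoactive intestinal peptide outside that list, rose as well, to 2.83, 4.74 and 3.5 FPKM in transgenic libraries, against 1.51, 1.36 and 1.08 FPKM in Cck-/- libraries (1.00, adjusted p = 0.00319; limma).

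In Purkinje cell genes the change was partial: some markers fell while others of the same cell did not pass. Of 36 tested Purkinje cell identity genes, 12 were lower (33.3%, against 4.37% of all tested genes), none was higher (against 3.3%) and 24 did not pass. The median was -0.23, with 28 negative and 8 positive changes. The transgenic libraries lay below the Cck-/- ones in 19 of the 36 (against 16% of all tested genes) and above them in 4 (against 15.1%). Car8, a carbonic anhydrase-like protein that damps the inositol trisphosphate receptor, stood at 211, 158 and 149.9 FPKM in transgenic libraries, against 358, 351 and 370.0 FPKM in Cck-/- libraries (-1.07, SE 0.18, adjusted p = 0.00255; limma). Transgenic replicate 1 was the highest of the transgenic libraries and still far below the Cck-/- range. Tmem255a, a membrane protein gene, showed the same order, with 10.8, 7.43 and 5.94 FPKM in transgenic and 26.2, 25.5 and 26.4 FPKM in Cck-/- libraries (-1.61, SE 0.19, adjusted p = 0.000155; limma). Doc2b, a calcium sensor of vesicle release, stood at 15.9, 12.4 and 11.4 FPKM in transgenic and 22.7, 24.2 and 23.9 FPKM in Cck-/- libraries. Icmt, which methylates prenylated proteins, stood at 92.3, 79.4 and 74 FPKM in transgenic and 121, 130.0 and 129 FPKM in Cck-/- libraries. In each of these genes the groups were apart, with transgenic replicate 1 the closest to the Cck-/- libraries. Doc2b, Icmt, Fam107b and Ebf2, the last a transcription factor of zebrin-negative Purkinje cells, changed by -0.80, -0.63, -0.63 and -0.50 (adjusted p = 0.0034, 0.00707, 0.00319 and 0.00235; limma). The abundant markers Pcp2 and Calb1, for calbindin, were not called. Pcp2 stood at 731, 605 and 685 FPKM in transgenic and 817, 702 and 734 FPKM in Cck-/- libraries (adjusted p = 0.673; limma). Calb1 stood at 314, 253 and 268 FPKM in transgenic and 364, 355 and 364 FPKM in Cck-/- libraries, lower without overlap (adjusted p = 0.183; limma). Pvalb, for parvalbumin, stood at 876, 893 and 899.5 FPKM in transgenic and 789, 829 and 749 FPKM in Cck-/- libraries (adjusted p = 0.602; limma). In whole cerebellum, fewer Purkinje cells and less RNA per cell cannot be told apart. The count of 12 became 7 without transgenic replicate 2 or 3 or Cck-/- replicate 1 or 3, and 9 without the libraries low in choroid plexus genes.

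Genes of the calcium machinery of these cells, some of which are also in the identity list, were lower too. In Purkinje cells, glutamate from parallel fibres makes the inositol trisphosphate receptor release calcium from an internal store, to which pumps return it. Of 33 tested genes of this system, 11 were lower (33.3%, against 4.37% of all tested genes), none was higher (against 3.3%) and 22 were not called (median -0.20). In the receptor cascade 4 of 12 genes fell, among stores and pumps 4 of 13 and among kinases and cyclic GMP enzymes 3 of 8. Atp2a3, the pump SERCA3, stood at 40.3, 26.9 and 24.9 FPKM in transgenic libraries, against 78.4, 78.5 and 78.8 FPKM in Cck-/- libraries (-1.36, SE 0.16, adjusted p = 0.00014; limma). The related SERCA2 pump gene Atp2a2 stood at 227, 199 and 191 FPKM in transgenic and 261, 283 and 281 FPKM in Cck-/- libraries (-0.42, adjusted p = 0.00484; limma). Casq2, which buffers calcium inside the store, stood at 11, 11.5 and 9.76 FPKM in transgenic and 19.3, 17.1 and 20.1 FPKM in Cck-/- libraries (-0.75, adjusted p = 0.00319; limma). Itpr1, for the inositol trisphosphate receptor, stood at 314, 303 and 278 FPKM in transgenic and 273, 302 and 304 FPKM in Cck-/- libraries, with groups that overlap (adjusted p = 0.961; limma). The count of 11 became 6 without transgenic replicate 2 or any 1 of the Cck-/- libraries, 7 without transgenic replicate 3 and 9 without the choroid-low libraries.

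Channels that set Purkinje cell firing gave 4 calls. Of 25 tested, Kcnab1 and Kcnab2, subunits of voltage-gated potassium channels, were lower (8%, against 4.37% of all tested genes). Kcnn2, a calcium-activated potassium channel, and Scn1a, a sodium channel, were higher (8%, against 3.3%). Kcnab1 stood at 41.8, 33.6 and 34.5 FPKM in transgenic and 64.5, 65 and 69.4 FPKM in Cck-/- libraries (-0.84, SE 0.14, adjusted p = 0.00157; limma). The other 3 changed by at most 0.37 in size, and for each there was a library without which it did not pass (highest adjusted p 0.0952 for Kcnn2 without Cck-/- replicate 3, 0.0998 for Scn1a without Cck-/- replicate 1 and 0.162 for Kcnab2 without transgenic replicate 3; limma). Among 30 tested genes of inherited ataxias, 4 were lower (13.3%, against 4.37% of all tested genes) and none higher. They include Car8, Ttpa, the carrier of vitamin E, and Elovl4, which lengthens fatty acids. Ttpa stood at 4.7, 4.09 and 4.33 FPKM in transgenic and 7.3, 6.0 and 7.34 FPKM in Cck-/- libraries (-0.55, adjusted p = 0.00105; limma), while the call of Elovl4 (-0.20) was lost without at least 1 library (highest adjusted p 0.133 without transgenic replicate 2). Of 19 genes for ataxin-1 partners and targets of Capicua, Ccnd1 was higher (0.35) and Dusp6 lower (-0.37), 5.26% in each direction against 3.3% and 4.37% of all tested genes, and neither call held without every library (highest adjusted p 0.092 without transgenic replicate 2 and 0.0635 without Cck-/- replicate 3; limma).

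**Figure D2:**
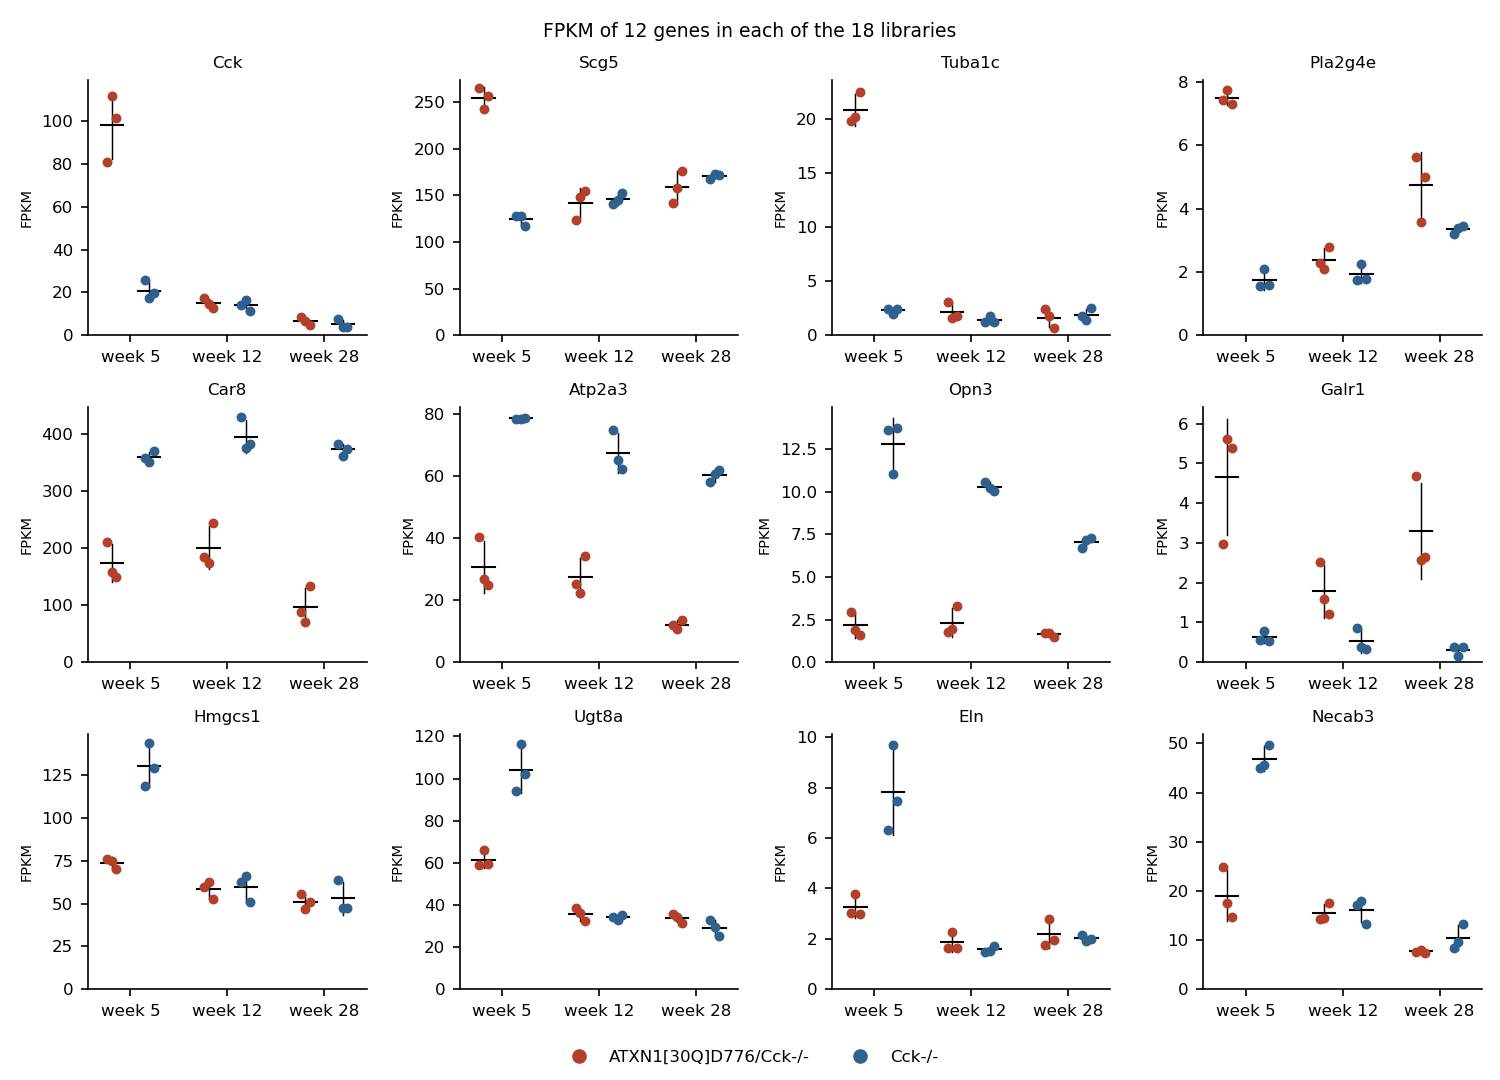
FPKM (vertical axes, from 0) of 12 genes in each of the 18 libraries, by age, with transgenic libraries in red to the left of Cck-/- libraries in blue. Black lines are the mean and the SD of 3 libraries. Cck, Scg5, Tuba1c and Pla2g4e are high in the 3 transgenic libraries of week 5, and Hmgcs1, Ugt8a, Eln and Necab3 are high in the 3 Cck-/- libraries of week 5.

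The largest decreases lay partly outside the Purkinje lists. Opn3, which encodes the opsin encephalopsin, stood at 2.96, 1.9 and 1.61 FPKM in transgenic libraries, against 13.6, 11 and 13.8 FPKM in Cck-/- libraries (-2.14, SE 0.15, adjusted p = 2.11e-06; limma). It shares 22.1% of its 50-base stretches with Chml, a gene at the same place, so reads of the pair are not fully separable. Mdfi, an inhibitor of myogenic transcription factors, had the smallest p of all genes, with 4.41, 3.68 and 3.74 FPKM in transgenic and 16.4, 15.5 and 12.9 FPKM in Cck-/- libraries (-1.69, SE 0.10, adjusted p = 6.25e-07; limma). Garnl3, a GTPase-activating protein gene, stood at 25.8, 14.3 and 12.9 FPKM in transgenic and 55, 57.1 and 58.8 FPKM in Cck-/- libraries (-1.7, adjusted p = 0.000228; limma). All 3 were well separated. Strip2, a subunit of a phosphatase and kinase complex, and Fam117a changed by -1.15 and -1.13, Slc5a1, the sodium-glucose cotransporter SGLT1, by -1.25, and Cabp2, a calcium-binding protein, by -1.34, and these calls held without each library in turn. Th, for tyrosine hydroxylase, stood at 0.633, 0.382 and 0.336 FPKM in transgenic and 3.95, 2.25 and 1.32 FPKM in Cck-/- libraries, where Cck-/- replicate 1 was the highest (-1.21, adjusted p = 0.0191; limma). Th, Lamp5 and the defensin gene Defb11 were each lost without at least 1 library (highest adjusted p 0.0932, 0.151 and 0.188, without Cck-/- replicate 1, without Cck-/- replicate 3 and without transgenic replicate 2; limma). Necab3, a neuronal calcium-binding protein, Nek2, a centrosomal kinase, and Them4, a mitochondrial thioesterase, complete the 15, at -1.28, -1.25 and -1.22.

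The largest increases ranged over lipid enzymes, a protease inhibitor, an apoptosis gene and adhesion and receptor genes. Pla2g4e, a phospholipase A2 that makes N-acylated membrane lipids, stood at 7.44, 7.75 and 7.31 FPKM in transgenic libraries, against 1.54, 2.07 and 1.58 FPKM in Cck-/- libraries (1.64, SE 0.12, adjusted p = 2.11e-06; limma). Serpina3n, a protease inhibitor made by reactive astrocytes, stood at 17.1, 17.4 and 19.9 FPKM in transgenic and 2.05, 1.72 and 2.39 FPKM in Cck-/- libraries, with no overlap (2.65, SE 0.59, adjusted p = 0.0134; limma). Within the later Cck-/- groups it varied, with 14.2 FPKM in replicate 2 of week 12 and 17.5 FPKM in replicate 1 of week 28. It was the single call among 15 tested genes of reactive astrocytes (6.67%, against 3.3% of all tested genes higher). Gfap stood at 63, 95.1 and 121 FPKM in transgenic and 90.2, 77.5 and 87.4 FPKM in Cck-/- libraries (adjusted p = 0.911; limma). Hrk, a pro-apoptotic BH3-only gene, stood at 4.38, 8.07 and 5.7 FPKM in transgenic and 2.27, 2.58 and 2.43 FPKM in Cck-/- libraries (1.01, SE 0.18, adjusted p = 0.00349; limma). Of the 14 tested members of the BCL2 family it alone rose, and the effector gene Bak1 fell by a small amount (-0.25, adjusted p = 0.00984; limma). That is 7.14% in each direction, against 3.3% of all tested genes higher and 4.37% lower. Clmp, an adhesion molecule, stood at 26.5, 24.7 and 26.9 FPKM in transgenic and 10.9, 15.7 and 12.5 FPKM in Cck-/- libraries (0.96, adjusted p = 0.000692; limma). Hyi, for hydroxypyruvate isomerase, and Fam227b changed by 1.06 and 1.12, and each shares its locus with another gene, Fam227b with Fgf7. Fam227b stood at 1.54, 2.33 and 1.81 FPKM in the transgenic libraries and reached at most 0.876 FPKM in any other library of the series. It was therefore tested only through the group in which it is high. F2r, the thrombin receptor, stood at 6.37, 7.04 and 6.17 FPKM in transgenic and 2.6, 1.83 and 1.76 FPKM in Cck-/- libraries, and its call was lost without any 1 of the 6 libraries (highest adjusted p 0.139 without Cck-/- replicate 3; limma). Il22 and the histone genes Hist2h2bb and Hist2h2ac also rose, by 0.93, 0.92 and 1.02, but share 41.0%, 53.6% and 38.6% of their 50-base stretches with other genes, and Hist2h2ac was lost without at least 1 library (highest adjusted p 0.0766 without transgenic replicate 3).

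**Figure D3:**
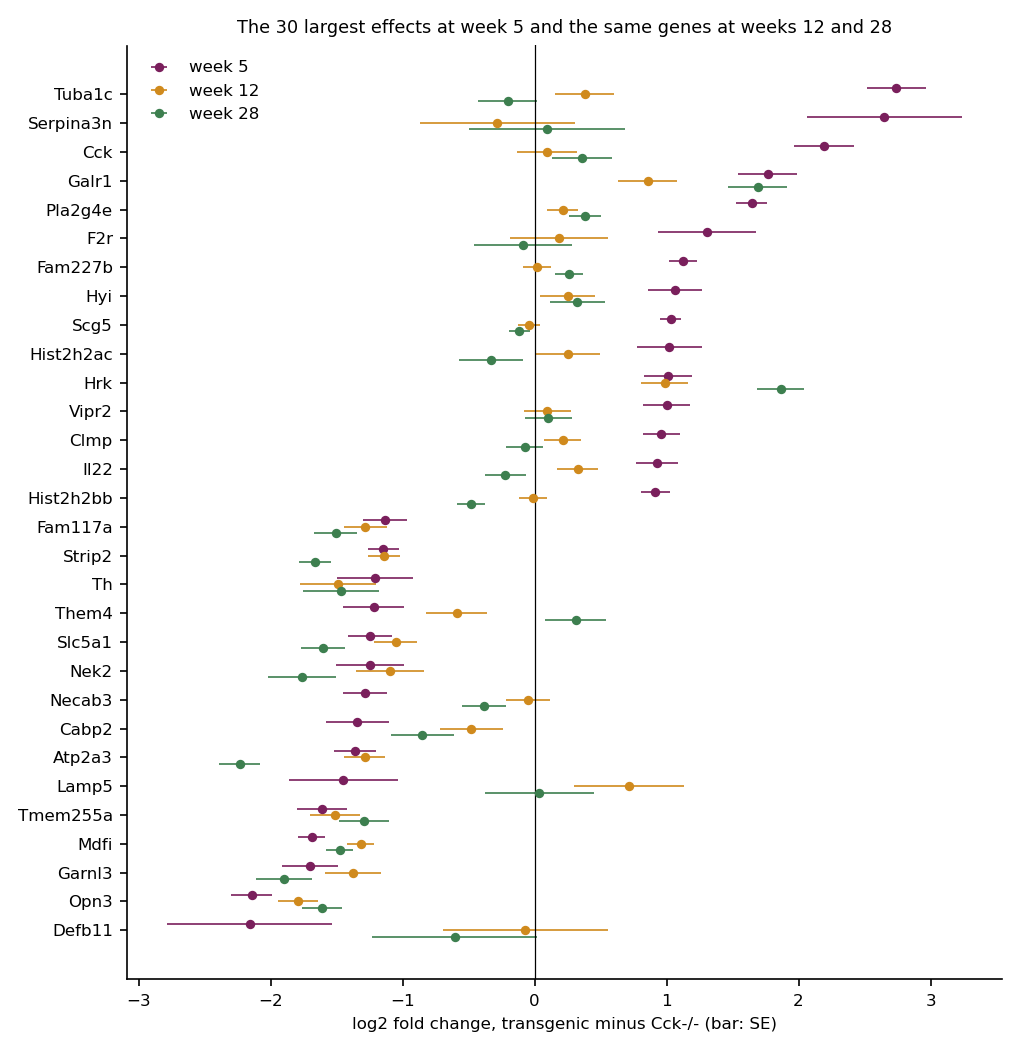
Log2 fold change, transgenic minus Cck-/-, with its SE as a bar, for the 15 largest rises and 15 largest falls at week 5, with the same genes at weeks 12 and 28. Genes run down the page from the largest rise to the largest fall. Opn3, Garnl3, Mdfi, Tmem255a, Atp2a3, Slc5a1, Strip2 and Fam117a are low at all 3 ages, and Tuba1c, Cck, Pla2g4e and Scg5 are much further from 0 at week 5 than later.

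Cholesterol synthesis was the list with the highest share of decreases. Cells make cholesterol from acetyl-CoA through mevalonate, squalene and lanosterol, and the brain must make its own because lipoproteins of the blood do not enter it. Of 20 tested enzymes, 19 were lower in transgenic libraries (95%, against 4.37% of all tested genes), none was higher (against 3.3%), and the median was -0.45. All 8 genes of the mevalonate steps but Acat2 fell, as did 3 of 3 from squalene to lanosterol and 9 of 9 after lanosterol. Hmgcs1, the synthase of an early step, stood at 76.4, 74.8 and 70.1 FPKM in transgenic and 119, 144 and 129 FPKM in Cck-/- libraries (-0.81, SE 0.12, adjusted p = 0.000801; limma). In the last part of the path, Cyp51, the lanosterol demethylase, stood at 19.5, 18.6 and 18 FPKM in transgenic and 31.6, 36.9 and 33.3 FPKM in Cck-/- libraries (-0.82, SE 0.10, adjusted p = 0.000208; limma). Sc5d, a sterol desaturase, stood at 27.6, 32.2 and 25.2 FPKM in transgenic and 43.5, 48.4 and 47.6 FPKM in Cck-/- libraries (-0.70, SE 0.086, adjusted p = 0.000208; limma). In all 20 genes, Acat2 among them, the 3 transgenic libraries lay below the 3 Cck-/- libraries, against 16% of all tested genes. All 20 were also higher in the 3 Cck-/- libraries of week 5 than in each of the other 15 libraries, against 6.15% of all genes. In none of them did the transgenic libraries lie below the other 15, against 0.771% of all tested genes. Most of those 15 libraries came from older mice, where the mean level given next was lower in both genotypes. Which week 5 group is unusual cannot be read from these counts. Read as a mean log2 level of the 20 genes, the transgenic libraries stood at 4.29 ± 0.043 and the Cck-/- libraries at 4.75 ± 0.053 at week 5 (SD, n = 3 each), against 4.17 in transgenic and 4.16 in Cck-/- libraries at week 12, and 4.05 in transgenic and 4.08 in Cck-/- libraries at week 28. The count of 19 became 12 without Cck-/- replicate 2 or 3 and also without the 3 libraries that held Xist together with Y-linked genes, and 6 without those low in choroid plexus genes. The result of Fdps, a further member, rests on a sequence of which 86.4% is shared with pseudogenes and other copies.

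Promoters of these genes are shown because their members moved together. Sterol-responsive genes are classically switched on by SREBP proteins, which bind a sterol regulatory element and act with the CCAAT-binding factor NF-Y. RefSeq windows on GRCm38.p6 (the mm10 assembly), from 250 bases before to 50 bases after an annotated start, were at hand for 15 of the 20 genes. The 3 with large decreases are printed on their own strand, 5′ to 3′, with the CCAAT letters of either strand (CCAAT or ATTGG) and the element core TCACNCCAC in capitals.
Hmgcs1, chr13:119690101-119690400, plus strand: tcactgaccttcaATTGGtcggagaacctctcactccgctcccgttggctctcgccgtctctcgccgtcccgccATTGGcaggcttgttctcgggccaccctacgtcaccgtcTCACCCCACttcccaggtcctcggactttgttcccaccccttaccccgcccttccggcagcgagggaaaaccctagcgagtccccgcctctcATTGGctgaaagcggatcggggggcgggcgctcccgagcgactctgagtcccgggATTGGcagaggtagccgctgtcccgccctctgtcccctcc
Cyp51, chr5:4104648-4104947, minus strand: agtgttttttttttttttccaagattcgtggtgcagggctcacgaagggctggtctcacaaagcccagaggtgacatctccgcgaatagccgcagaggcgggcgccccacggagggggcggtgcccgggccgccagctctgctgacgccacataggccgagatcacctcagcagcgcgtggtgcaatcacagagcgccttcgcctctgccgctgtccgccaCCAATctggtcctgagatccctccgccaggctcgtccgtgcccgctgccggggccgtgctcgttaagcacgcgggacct
Sc5d, chr9:42264251-42264550, minus strand: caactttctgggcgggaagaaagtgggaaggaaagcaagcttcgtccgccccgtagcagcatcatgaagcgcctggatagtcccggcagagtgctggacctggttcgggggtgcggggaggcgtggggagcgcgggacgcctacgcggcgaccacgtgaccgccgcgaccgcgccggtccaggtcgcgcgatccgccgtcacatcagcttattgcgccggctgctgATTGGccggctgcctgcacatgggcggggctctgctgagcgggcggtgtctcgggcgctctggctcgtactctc
Searched on both strands, CCAAT was found in 14 of the 15 genes (93.3%), against 42.7% of the tested genes with a window and 41.1% of all genes with one. The letters were found in 9 of 18 myelin genes and 11 of 26 Purkinje cell identity genes (42.3%). TCACNCCAC was found in 1 of the 15, Hmgcs1, where it starts 137 bases before the annotated start, against 1.41% of tested genes. Hmgcs1 holds 4 CCAAT matches, and Cyp51 and Sc5d hold 1 each. These are letter matches in short windows and were not tested as binding sites. For the sterol element only the letters TCACNCCAC were searched, so other spellings of it would be missed.

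None of the genes that sense, take up or export cholesterol was called lower. Of 21 tested, 2 were higher (9.52%, against 3.3% of all tested genes), with a median of 0.15. In 5 of the 21 the Cck-/- libraries of week 5 lay below each of the other 15, against 4.93% of all tested genes. Mylip, which encodes the ubiquitin ligase IDOL, a target of sterol-sensing nuclear receptors, stood at 8.24, 8.9 and 9.02 FPKM in transgenic libraries, against 5.51, 6.25 and 5.95 FPKM in Cck-/- libraries (0.49, SE 0.069, adjusted p = 0.000602; limma). Apoe, the main lipoprotein of the brain, stood at 1049, 1281 and 1312 FPKM in transgenic and 959, 865 and 897 FPKM in Cck-/- libraries (0.41, adjusted p = 0.0371; limma), and did not pass without some of the single libraries, with an adjusted p of up to 0.135 without transgenic replicate 2. Srebf2, the SREBP of the cholesterol path, stood at 31.9, 29.8 and 29.9 FPKM in transgenic and 30.6, 32.9 and 31.3 FPKM in Cck-/- libraries (adjusted p = 0.698; limma). Of 12 genes of fatty acid synthesis, 3 were lower (25%, against 4.37% of all tested genes), with a median of -0.0049. They were the elongases Elovl1 (-0.48) and Elovl6 (-0.32) and the acetyl-CoA synthetase Acss2 (-0.23). Acss2 was lost without at least 1 library (highest adjusted p 0.092 without transgenic replicate 2; limma).

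**Figure D4:**
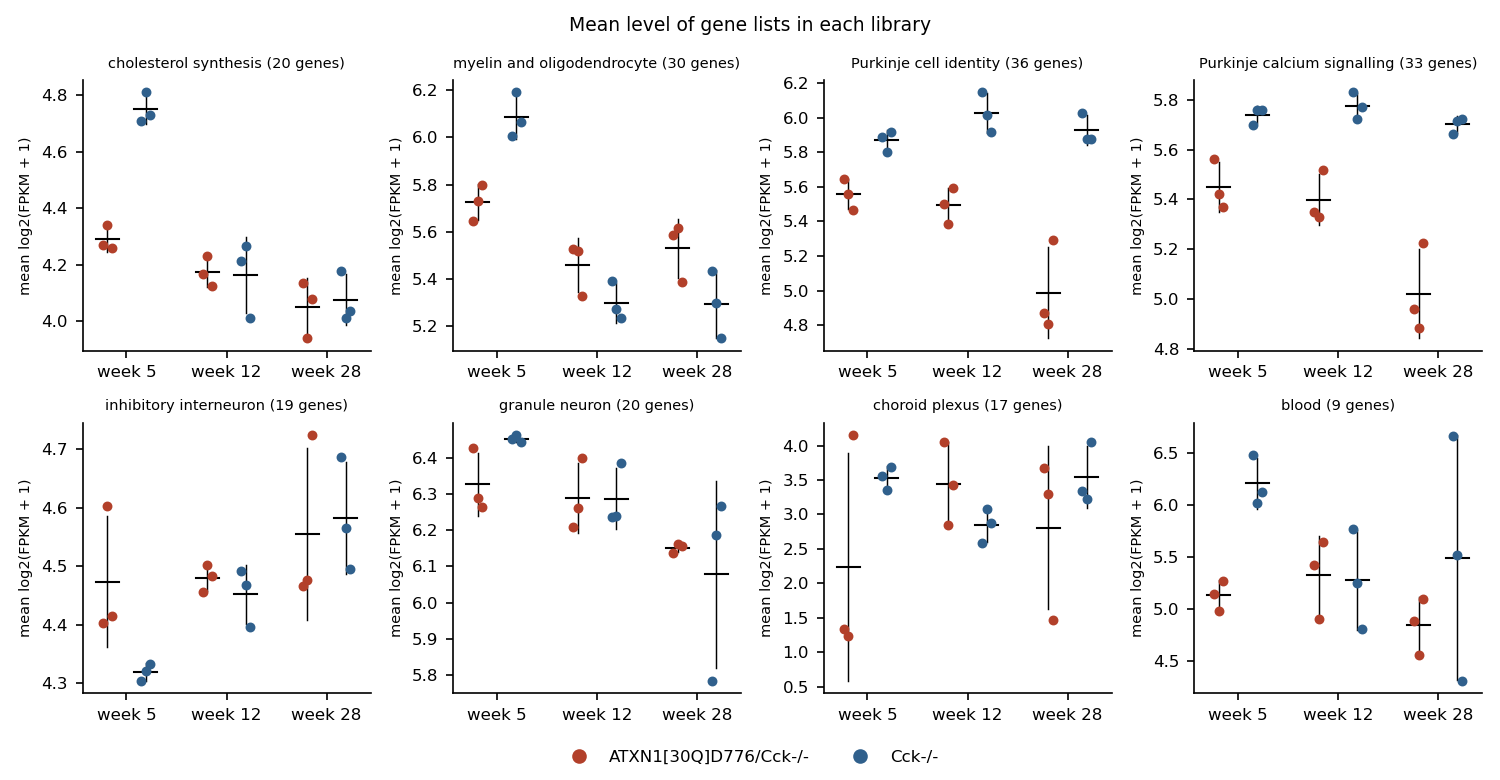
Mean log2(FPKM + 1) over the tested genes of 8 lists (vertical axes, not from 0) in each of the 18 libraries, by age, with transgenic libraries in red to the left of Cck-/- libraries in blue. Black lines are the mean and SD of 3 libraries. For cholesterol synthesis and myelin the 3 Cck-/- libraries of week 5 stand above all others, while for Purkinje cell identity the transgenic libraries are lower at each age.

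Myelin genes were lower as well. Myelin is the lipid-rich sheath that oligodendrocytes wrap round axons, and it is still being laid down in young mice. Of 30 tested genes of myelin and mature oligodendrocytes, 11 were lower (36.7%, against 4.37% of all tested genes), none was higher (against 3.3%) and 19 were not called (median -0.35). The decreases comprised 7 of 12 sheath proteins, 3 of 4 enzymes of myelin lipids and 1 of 6 regulators. Ugt8a, which makes galactosylceramide, stood at 59, 66.3 and 59.4 FPKM in transgenic libraries, against 94.1, 117 and 102 FPKM in Cck-/- libraries (-0.75, SE 0.093, adjusted p = 0.000228; limma). Fa2h, which hydroxylates its fatty acid, stood at 38.3, 36.5 and 36.6 FPKM in transgenic and 50.2, 57.9 and 51.3 FPKM in Cck-/- libraries, and Gal3st1, which adds the sulphate, at 10.3, 11.5 and 10.6 FPKM in transgenic and 15.8, 16.1 and 15.9 FPKM in Cck-/- libraries. They changed by -0.50 and -0.52 (adjusted p = 0.000527 and 0.00145; limma), so these 3 enzymes of sulphatide synthesis fell with no overlap between the groups. Among sheath proteins, Mog stood at 81.1, 74.4 and 80.1 FPKM in transgenic and 115, 129 and 119 FPKM in Cck-/- libraries (-0.62, adjusted p = 0.0034; limma), and Tspan2, Cldn11 and Cnp changed by -0.69, -0.67 and -0.47. The most abundant of them, Mbp, stood at 2381, 2409.9 and 2308 FPKM in transgenic and 2831, 3259 and 2849.6 FPKM in Cck-/- libraries and was not called (adjusted p = 0.0593; limma). No gene of 10 for oligodendrocyte precursors was called, and the 2 with the smallest p were Neu4 (-0.24) and C1ql1 (-0.37). As with cholesterol, 18 of the 30 myelin genes were higher in the Cck-/- libraries of week 5 than in each of the other 15 libraries, against 6.15% of all tested genes. Most of those 15 were of older mice. The mean log2 level of the list was 5.73 at week 5 and 5.46 at week 12 in transgenic libraries, and 6.09 and 5.30 in Cck-/- libraries. The Hox sums and the blood gene sums given above were higher in the Cck-/- libraries of week 5 than in the transgenic ones of that week, though not than in every later library, and their part in the myelin and cholesterol results was not tested. The count of 11 became 7 without Cck-/- replicate 2 and 3 without the libraries low in choroid plexus genes.

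Among neurons other than Purkinje cells, 1 granule neuron gene and 7 inhibitory interneuron genes were called. Of 20 granule neuron genes, Calb2, for calretinin, was the single call (-0.62, adjusted p = 0.0392; limma), 5% lower against 4.37% of all tested genes. It was lost without at least 1 library (highest adjusted p 0.135 without Cck-/- replicate 3). Of 19 genes of inhibitory interneurons, 6 were higher (31.6%, against 3.3% of all tested genes), with a median of 0.19. The share called lower, 1 gene (5.26%), was close to the 4.37% of all tested genes. The higher ones were Sorcs3, a sorting receptor, Tfap2a and Tfap2b, transcription factors of the GABAergic lineage, Kit, Pax2 and Lgi2. Kit, the receptor on molecular layer interneurons, stood at 73.4, 79.8 and 66.3 FPKM in transgenic and 54.1, 57.9 and 54.2 FPKM in Cck-/- libraries (0.39, SE 0.098, adjusted p = 0.0237; limma). Pax2 stood at 3.38, 3.61 and 3.35 FPKM in transgenic and 2.46, 2.55 and 2.3 FPKM in Cck-/- libraries (0.37, SE 0.094, adjusted p = 0.0258; limma). None of the 6 calls was made without transgenic replicate 2 or without Cck-/- replicate 3, 1 was made without Cck-/- replicate 1, 2 without transgenic replicate 1 and 1 without the libraries low in choroid plexus genes. With the choroid plexus level as a covariate, 0 of the 19 were called higher. Gjd2, for the neuronal gap junction protein connexin 36, was the lower one, at 5.37, 6.02 and 5.33 FPKM in transgenic and 6.93, 6.82 and 6.71 FPKM in Cck-/- libraries (-0.25, adjusted p = 0.0105; limma). Of 27 genes of synapse development and plasticity, Grid1 and Gabra3 were higher (0.33 and 0.32) and Grik1 was lower (-0.40). That is 7.41% higher and 3.7% lower, against 3.3% and 4.37% of all tested genes. Each was lost without at least 1 library (highest adjusted p 0.10, 0.109 and 0.133; limma).

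Glial and vascular lists held calls in both directions. Among 21 genes of Bergmann glia and astrocytes, 2 were higher and 2 lower (9.52% each, against 3.3% and 4.37% of all tested genes): Gjb6, for the connexin of astrocytes, and Ntsr2, a neurotensin receptor, were higher, and Fabp7 and the homeodomain gene Hopx lower. Fabp7, a lipid-binding protein of Bergmann glia, stood at 127, 129 and 105 FPKM in transgenic and 184, 176 and 193 FPKM in Cck-/- libraries (-0.61, adjusted p = 0.0229; limma), and each of the 4 was lost without at least 1 library (highest adjusted p 0.12, 0.17, 0.0901 and 0.0855; limma). Of 29 microglial genes, Apoe was higher and Olfml3 lower (3.45% each, against 3.3% and 4.37% of all tested genes). Olfml3 stood at 2.5, 2.62 and 2.16 FPKM in transgenic and 5.46, 4.9 and 5.67 FPKM in Cck-/- libraries (-0.89, adjusted p = 0.013; limma), and was not called without Cck-/- replicate 3 (adjusted p = 0.0557). The complement genes C1qa, C1qb and C1qc and the receptor Cx3cr1 were not called. Among 18 vessel genes, 3 were lower (16.7%, against 4.37%) and 1 higher (5.56%, against 3.3%). The endothelial receptor Kdr had the smallest p, with 2.36, 2.65 and 2.28 FPKM in transgenic and 4.22, 4.96 and 4.8 FPKM in Cck-/- libraries (-0.72, SE 0.089, adjusted p = 0.000225; limma). Rgs5 of pericytes (-0.78) and Cldn5 of the blood-brain barrier (-0.33) were lower and Flt1, another VEGF receptor, higher (0.26), each lost without at least 1 library (highest adjusted p 0.0855, 0.126 and 0.149; limma). The blood gene sums given above were lower in the same transgenic libraries, and their part in these results was not tested. None of 17 choroid plexus genes was called (median -1.21), but 13 were called lower without transgenic replicate 3, against 422 of the 13487 tested genes in that setting. In transgenic replicates 1 and 2 Ttr stood at 43.1 and 18 FPKM, against 2678 FPKM in transgenic replicate 3 and 1581 FPKM or more in each Cck-/- library.

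Pathways of growth, stress and the clock held 1 or 2 calls each, or none. Of 34 mTORC1 genes, Tbc1d7, which belongs to the TSC complex, a brake on mTORC1, was the single call. That is 2.94% lower, under the 4.37% of all tested genes. Tbc1d7 stood at 14.4, 14.1 and 14.1 FPKM in transgenic and 17.8, 17.8 and 18 FPKM in Cck-/- libraries (-0.31, SE 0.066, adjusted p = 0.0097; limma). Of 32 chaperone and stress genes, Bag3 and Hspa1b were higher (0.62 and 0.46), which is 6.25%, against 3.3% of all tested genes. Both were lost without at least 1 library (highest adjusted p 0.108 and 0.171; limma), and Hspa1b shares 62.3% of its 50-base stretches with Hspa1a. None of 17 immediate early genes, which mark recent activity, was called. Of 19 clock genes, the repressors Nr1d1 and Nr1d2 were higher (10.5%, against 3.3% of all tested genes). Nr1d1 stood at 50.2, 44.7 and 49.9 FPKM in transgenic and 35.6, 41 and 36.5 FPKM in Cck-/- libraries (0.35, SE 0.059, adjusted p = 0.00235; limma), and Nr1d2 was lost without at least 1 library (highest adjusted p 0.169 without Cck-/- replicate 1).

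Tubulins, the subunits of microtubules, moved in opposite directions. Of 12 tested, 6 were lower (50%, against 4.37% of all tested genes) and Tuba1c was higher (8.33%, against 3.3%). Tuba1c stood at 19.8, 20.3 and 22.6 FPKM in transgenic libraries, against 2.38, 1.99 and 2.45 FPKM in Cck-/- libraries (2.74, SE 0.22, adjusted p = 4.95e-06; limma). Tuba1a, its neighbour on chromosome 15, stood at 403, 411 and 429 FPKM in transgenic and 590.3, 579.8 and 577 FPKM in Cck-/- libraries (-0.49, SE 0.057, adjusted p = 0.000132; limma). Both pairs of groups were far apart, but the 2 genes and Tuba1b are near copies: 42.5% of the 50-base stretches of Tuba1c occur in Tuba1a and 52.0% in Tuba1b. The division of reads among them is therefore uncertain. Tubb2a, a beta-tubulin, fell to 102, 107 and 106 FPKM in transgenic libraries, against 149, 147 and 145 FPKM in Cck-/- libraries (-0.48, adjusted p = 0.000228; limma), and shares 45.6% of its stretches with Tubb2b, which was not called. Tuba1b, Tubb4a, Tubb4b and Tubb5 were the other lower members, and Tuba1b and Tubb5 were lost without at least 1 library (adjusted p up to 0.0593 and 0.0898; limma). The count of 6 became 3 without Cck-/- replicate 1 and 2 without the libraries low in choroid plexus genes. Of 15 genes of late postnatal immaturity, Marcksl1 (-0.53) and Stmn2 (-0.32) were lower (13.3%, against 4.37% of all tested genes). Each was lost without at least 1 library (highest adjusted p 0.0555 and 0.116; limma).

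The effect at week 5 was then set beside the effects at weeks 12 and 28, each with its own libraries. At week 12, 38 genes were higher (0.282%) and 145 lower (1.08%), and at week 28, 612 were higher (4.54%) and 827 lower (6.13%). Of the 590 genes lower at week 5, 105 were also lower at week 12 (17.8%, and 72.4% of the 145), and 188 at week 28 (31.9%, and 22.7% of the 827). Of the 445 higher genes, 15 were also higher at week 12 (3.37%, and 39.5% of the 38) and 69 at week 28 (15.5%, and 11.3% of the 612). Genes called at all 3 ages numbered 104 lower and 13 higher. The lower ones include Opn3, Mdfi, Garnl3, Tmem255a, Car8, Atp2a3, Doc2b and Icmt, and the higher ones include Hrk. Another 17 genes were lower at week 5 and higher at week 28, and 5 were higher at week 5 and lower at week 28.

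A test of the difference itself separated 2 patterns. The effect at week 5 differed from that at week 12 in 90 genes (0.667%) and from that at week 28 in 492 genes (3.65%). Purkinje cell genes were further reduced at week 28. Of the 36 identity genes, 12 were lower at week 5, 14 at week 12 and 31 at week 28, with medians of -0.23, -0.50 and -1.05. Of all tested genes, 4.37%, 1.08% and 6.13% were lower at these ages. For 19 of the 36 the effect at week 5 differed from that at week 28 (against 3.65% of all tested genes). For none it differed from that at week 12 (against 0.667%). Itpr1, uncalled at week 5 (0.025), changed by -1.48 at week 28 (difference 1.5, adjusted p = 0.0106; limma), and the regulator of G-protein signalling Rgs8 changed by -0.14 at week 5 and -1.37 at week 28 (difference 1.23, adjusted p = 0.0165; limma). Pcp2 changed by -0.16 at week 5 and -1.15 at week 28 (difference 1.00, adjusted p = 0.0454; limma). Fgf7, a growth factor gene at the same place as Fam227b, was lower at each age, with log2 fold changes of -1.01 at week 5, -1.72 at week 12 and -2.21 at week 28.

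Cholesterol and myelin genes took the other pattern, with decreases called at week 5 and almost none later. No cholesterol enzyme was called lower at week 12 and 1 was at week 28, against 1.08% and 6.13% of all tested genes. The effect at week 5 differed from that at week 12 in 4 of 20 (against 0.667% of all tested genes). It differed from that at week 28 in 7 of 20 (against 3.65%), and for most members neither difference was called. Hmgcs1 changed by -0.81 at week 5 and -0.038 at week 28 (difference -0.78, adjusted p = 0.0256; limma). For myelin the difference was called in 7 of 30 genes at week 12 (against 0.667% of all tested genes) and in 14 of 30 at week 28 (against 3.65%). At week 28, 8 of the 30 myelin genes were higher in transgenic libraries, against 4.54% of all tested genes. Fa2h changed by -0.50 at week 5, 0.18 at week 12 and 0.29 at week 28 (difference of week 5 from week 28 -0.79, adjusted p = 0.00082; limma). Cldn11, a tight junction protein of myelin, changed by -0.67 at week 5 and 0.47 at week 28 (difference -1.14, adjusted p = 0.00704; limma).

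In all, 72 genes were called at week 5 and differed from both later ages, 25 higher and 47 lower. Cck had 17.1, 14.4 and 12.8 FPKM in transgenic and 13.8, 16.6 and 11.1 FPKM in Cck-/- libraries at week 12, and 8.35, 6.34 and 4.85 FPKM in transgenic and 7.34, 3.85 and 3.71 FPKM in Cck-/- libraries at week 28, so its transgenic libraries of week 5 stood alone (difference 2.1, adjusted p = 0.0064, and 1.83, adjusted p = 0.0105; limma). Eln, for elastin, showed the reverse form: it stood at 3.03, 3.76 and 2.97 FPKM in transgenic and 6.33, 9.71 and 7.46 FPKM in Cck-/- libraries at week 5, and at 1.64, 2.28 and 1.64 FPKM in transgenic and 1.48, 1.53 and 1.73 FPKM in Cck-/- libraries at week 12 (difference -1.18, adjusted p = 0.0102; limma). Serpinb2, a protease inhibitor, stood at 0.481, 0.239 and 0.128 FPKM in transgenic and 2.43, 1.19 and 1.7 FPKM in Cck-/- libraries at week 5, and at 0.0631, 0.162 and 0.209 FPKM in transgenic and 0.156, 0.0576 and 0.274 FPKM in Cck-/- libraries at week 12 (difference -1.08, adjusted p = 0.0208; limma). In both, the 3 Cck-/- libraries of week 5 were the high ones. At weeks 5 and 12 Serpinb2 reached the 1 FPKM set for testing only in those 3. Its entry to the test may therefore rest on the libraries in which it is high. The counts depend on the libraries. The 90 became 43 to 59 without transgenic replicate 2 or any 1 of the Cck-/- libraries of week 5, and the 492 became 131 to 272 without any 1 of the 6 libraries, with the lowest of both without Cck-/- replicate 3. Without the 3 libraries that held Xist and also Y-linked genes they were 28 and 65.

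That form was common, and it was described, without a test, after the values had been seen. Of the 590 lower genes, the 3 Cck-/- libraries of week 5 lay above the other 15 libraries in 319 (54.1%, against 6.15% of all tested genes), and the 3 transgenic libraries lay below the other 15 in 48 (8.14%, against 0.771%). Of the 445 higher genes, the Cck-/- libraries of week 5 lay below the other 15 in 236 (53%, against 4.93%), and the transgenic libraries lay above the other 15 in 45 (10.1%, against 0.652%). Since the calls rest on the same libraries, these shares are raised by the choice of genes in both groups. Most of the other 15 libraries also came from older mice, so genes that change with age enter the shares. That part was not tested. Scg5 and Pla2g4e belong to the genes whose transgenic libraries stood out, and the cholesterol enzymes, Eln and Rhbdf2, an inactive rhomboid protease, to those whose Cck-/- libraries did. With 3 libraries a group, a property of the Cck-/- libraries of week 5 other than their genotype cannot be told apart from the genotype.

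**Figure D5:**
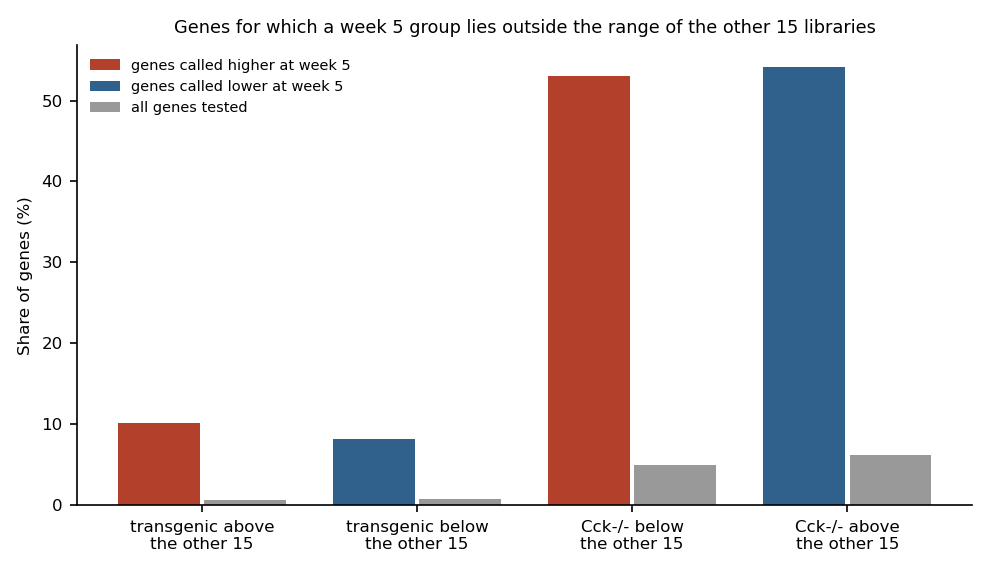
Share of genes (percent, vertical axis) for which the 3 libraries of a week 5 group lie outside the range of the other 15 libraries, for genes called higher (red) or lower (blue) at week 5 and for all tested genes (grey). The Cck-/- libraries lay outside for 53% of higher and 54.1% of lower genes, and the transgenic libraries for 10.1% and 8.14%.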

How the data were processed

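RNA from cerebellum was sequenced in 18 libraries, 3 for each of 6 groups. The authors deposited a table of FPKM values per gene, made with TopHat2 2.0.11 and Cufflinks 2.2.1 on mm10 per the submitters' processing notes, and with Cuffnorm's layout of columns per the file headers. A further 36 columns, of confidence bounds, were not used. The depth in reads is not given, and steps in low values gave only an approximate scale. Of 22783 genes, 21 values in 11 genes carry a failed status, which touches 1 called gene, Dnmt3a (named after its values were seen).

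Values were taken as log2(FPKM + 1), so fold changes of low genes are understated. Genes with at least 1 FPKM in at least 3 libraries were fitted with limma 3.58.1 (R 4.3.3, mean-variance trend, 6 group means, 12 residual degrees of freedom), and p-values were Benjamini-Hochberg adjusted over 13487 genes, with 0.05 as the threshold. All p-values marked limma are two-sided. The difference between ages was an interaction in the same fit. The procedure was tested on simulated data first. The 31 gene lists (660 members, 589 tested) and the members were chosen with earlier results of these data known. Named genes are the 15 largest calls in each direction without overlap or clone names, up to 6 called members per list by p (2 where none passed), the 8 largest in each direction of each difference between ages, calls within 5 Mb of Cck, and Cck, Atxn1, Cckar, Cckbr and Pcp2. Other names (uncalled or further list members) were added with their values in view. Sequence sharing was counted as 50-base stretches found in another gene's transcripts. Promoter windows are from RefSeq. Some genes that the lists or this rule include are not reported here. Alternatives comprised pseudocounts, filters, scalings, fits, covariates, the replicate block and libraries left out.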

Additional observations from a re-analysis of the deposited data

Results flagged for a closer look

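For 28 named genes, the log2 fold change at week 5 (transgenic minus Cck-/-) differed from that at week 12 by limma's test of the difference (adjusted p under 0.05 over all genes). The difference, week 5 minus week 12, was positive in 9. The values were 2.36 for Tuba1c, 2.10 for Cck, 1.43 for Pla2g4e, 1.10 for Fam227b, 1.07 for Scg5, 0.93 for Hist2h2bb and 0.90 for Zkscan16. Next came 0.71 for Aaed1 and 0.40 for Scn1a. The difference was negative in 19. Nearest 0 were -0.38 for Bak1, -0.52 for Tuba1a, -0.58 for Elovl1, -0.60 for Cnp, -0.65 for Sc5d, -0.68 for Gal3st1 and -0.68 for Fa2h. These were followed by -0.70 for Cyp51, -0.77 for Kdr, -0.79 for Hmgcs1, -0.80 for Ugt8a, -0.90 for Cldn11, -0.90 for Mog and -0.92 for Rhbdf2. Larger still in size were -0.99 for Gsn, -1.07 for Nxpe4, -1.08 for Serpinb2, -1.18 for Eln and -1.24 for Necab3.

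For 46 named genes, the log2 fold change at week 5 (transgenic minus Cck-/-) differed from that at week 28 by limma's test of the difference (adjusted p under 0.05 over all genes). The difference, week 5 minus week 28, was positive in 20. The values were 2.94 for Tuba1c, 1.83 for Cck, 1.5 for Itpr1, 1.40 for Hist2h2bb, 1.35 for Hist2h2ac, 1.26 for Pla2g4e and 1.23 for Rgs8. Next came 1.20 for Fgf7, 1.15 for Il22, 1.15 for Scg5, 1.05 for Icmt, 1.04 for Clmp, 1.00 for Pcp2 and 0.93 for Doc2b. The smallest positive ones were 0.88 for Atp2a3, 0.87 for Fam227b, 0.65 for Zkscan16, 0.64 for Aaed1, 0.37 for Scn1a and 0.32 for Nr1d1. The difference was negative in 26. Nearest 0 were -0.31 for Gjd2, -0.32 for Fdps, -0.54 for Tuba1a, -0.59 for Kdr, -0.60 for Elovl1 and -0.62 for Sc5d. These were followed by -0.64 for Cnp, -0.75 for Cyp51, -0.78 for Hmgcs1, -0.79 for Fa2h, -0.79 for Tspan2, -0.80 for Gal3st1 and -0.90 for Necab3. Larger still in size were -0.90 for Mog, -0.90 for Gsn, -0.95 for Rhbdf2, -0.96 for Ugt8a, -1.10 for Serpinb2, -1.10 for Eln and -1.11 for Ntf3. The most negative were -1.14 for Cldn11, -1.23 for S100a10, -1.26 for Mslnl, -1.29 for Nxpe4, -1.31 for Olfml3 and -1.53 for Them4.

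In the cholesterol and myelin genes named here the difference was negative against both ages where it was called, and in the Purkinje cell genes Itpr1, Rgs8, Icmt, Pcp2, Doc2b and Atp2a3 it was positive against week 28, where their decrease was larger. No explanation of these differences was tested, and the limit set by the filter, given above for Fam227b and Serpinb2, applies here too.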

How the results depend on the processing

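Neither other pseudocounts (0.1, 0.5) or filters (none, or a mean of 5 FPKM), nor median-ratio or quantile scaling, robust or untrended fits, an Xist covariate or the replicate block moved the 3 counts of calls (1035 at week 5, 90 and 492 for the differences from weeks 12 and 28) by over 1.5 times. Library weights gave 3112, 367 and 4325. The choroid plexus covariate gave 704 at week 5, of which 611 were among the 1035. It gave 39 and 401 for the differences from weeks 12 and 28. A fit of the week 5 libraries alone called 1152 genes, of which 803 were among the 1035, and 99 of the 114 named calls held. It called 17 myelin genes lower, against 11. Leaving out 1 library of week 5 gave 458 to 802 for the effect at week 5, 43 to 75 for the difference from week 12 and 131 to 272 for that from week 28. Without the libraries low in choroid plexus genes, chosen after seeing the data, the first 2 were 309 and 32. Without those holding Xist along with Y-linked genes, likewise chosen, all 3 were 666, 28 and 65. The cause was not tested.

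Of the 114 named genes called, 57 kept the call without the libraries low in choroid plexus genes, 83 with the choroid plexus covariate and 76 to 92 without 1 library. Some uncalled genes turned sign. Itpr1 (0.025) was -0.00626 with library weights, -0.14 with the choroid plexus covariate, -0.0756 without the libraries low in choroid plexus genes, -0.0127 without those holding Xist along with Y-linked genes, and -0.0251 to 0.0759 without 1 library. Cckbr (0.11) ranged over -0.0246 to 0.21 without 1 library. Without the libraries low in choroid plexus genes, Clic6 was 0.41 and Ttr 0.51, against -1.76 and -3.85 with all libraries.

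Same-numbered libraries of the 2 groups correlated at 0.0341, 0.149 and 0.00470 in their deviations from group means, so the numbers were not taken to pair them. With the replicate block, 1007 genes were called at week 5 (420 higher, 587 lower), of which 932 were among the 1035, and 109 of the 114 named calls held. Myelin genes called lower numbered 16 with the block, against 11 without it.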

Other observations

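The peptide genes Sst and Vip, and with them Nrgn and Tfap2d, split the libraries in a way that cut across the genotypes. Sst, for somatostatin, stood at 4.43, 18.5 and 5.80 FPKM in transgenic libraries, against 15.5, 6.23 and 17.4 FPKM in Cck-/- libraries. Nrgn, for the calmodulin-binding protein neurogranin, stood at 4.74, 23.9 and 4.34 FPKM in transgenic and 17.5, 2.23 and 24.5 FPKM in Cck-/- libraries. Transgenic replicate 2 and Cck-/- replicates 1 and 3 were thus the high ones in both genes. Vip, for vasoactive intestinal peptide, and the midbrain transcription factor Tfap2d had the same 3 libraries high, with Tfap2d at 0.0124, 0.975 and 0.0717 FPKM in transgenic and 0.450, 0.0144 and 0.419 FPKM in Cck-/- libraries. None of these 4 genes was called, and the pattern was noticed after the values were seen.

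Support tissues gave little. Of 14 genes of the meninges none was called (median 0.25), and Ptgds, for prostaglandin D synthase, stood at 1478, 1907 and 1796 FPKM in transgenic and 966, 1110.2 and 1310.0 FPKM in Cck-/- libraries without passing (adjusted p = 0.157; limma). Of 18 collagen and laminin genes, Col5a1 was higher (5.56%, against 3.3% of all tested genes). It stood at 3.78, 3.16 and 2.84 FPKM in transgenic and 1.57, 1.60 and 1.65 FPKM in Cck-/- libraries (adjusted p = 0.0234; limma), a call lost without at least 1 library. Across chromosomes, calls were most frequent on chromosome 3, with 92 of 660 tested genes (13.9%), 32 higher and 60 lower, against 7.67% of all tested genes, a comparison made without a test. The 5 Mb window of that chromosome from 100000001 to 105000000 (mm10) held 11 calls among 41 tested genes (26.8%), and is named as the window with the highest share of the 266 windows with at least 20 tested genes.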
